A study of Drosophila melanogaster with 2 samples.

Results

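The genes described here encode the subunits of the proteasome and their close relatives in Drosophila melanogaster. They were taken by name from the annotation of the dm6 assembly: protein-coding genes whose symbol starts with Rpn or Rpt and a digit, or with Prosalpha or Prosbeta. The rule gave 48 genes of the 13968 protein-coding genes on the major chromosome arms. Of these, 32 encode subunits of the general complex, and 16 are paralogues whose symbol ends in R or T, with or without a number. By arm, 8 of the genes lie on 2L, 13 on 2R, 7 on 3L, 14 on 3R and 6 on X.

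The proteasome degrades proteins that carry ubiquitin chains. Its core particle is a barrel of alpha rings, which gate the entry, around beta rings, where Prosbeta1, Prosbeta2 and Prosbeta5 hold the proteolytic sites. The regulatory particle caps the barrel: its base holds the Rpt ATPases, which unfold and thread the substrate, and its Rpn subunits form scaffolds, bind ubiquitin and remove it. Several of the R and T paralogues are known from work in flies as testis forms of a general subunit.

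The samples were whole embryos collected 0 to 24 h after egg laying from flies with a transgene for CG4360, a zinc finger protein, fused to enhanced green fluorescent protein (eGFP). Chromatin bound by the fusion was precipitated with an antibody against GFP and sequenced (ChIP-seq), in 1 group of 2 biological replicates that all carried the transgene. No control was analysed here, and embryos of all stages and all tissues were mixed, so binding in few cells and weak binding in many cannot be told apart. The labels do not say in which cells the fusion is made.

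Each replicate had a ranked list of calls and a thresholded list, which holds calls with an irreproducible discovery rate (IDR) of at most 0.01. The IDR is low for calls that rank consistently high in 2 data sets. It is given below as −log10, so that 2 is the threshold. Both replicates together gave the same kinds of list in 2 forms, called conservative and pooled. The conservative ranked list holds a matching signal from each of the 2 replicates. Which data sets were compared for the other lists is not given here, so IDRs of different lists need not measure the same agreement. The conservative lists held 5697 thresholded peaks among 128147 ranked calls, and the pooled lists held 6198 among 129286. Replicate 1 had 4519 thresholded peaks and replicate 2 had 3682. Ranked calls past the IDR threshold outnumbered the thresholded peaks by 178 in the conservative lists and 194 in the pooled lists. In replicate 1 the difference was 156, and in replicate 2 it was 126. Absence from a thresholded list thus does not by itself mean that a call failed the IDR threshold. The value of a call is the authors' signal value, whose scale is not given, and the read depth is unknown, so values are compared within a list only. The median signal of the conservative thresholded peaks was 103.8, with quartiles of 72.1 and 186.7.

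Few proteasome genes had a thresholded peak summit within 500 bp of a transcript start. In the conservative list there were 2 of 48 (4.17%), Rpn2 and Rpn3, where 15.9% of all protein-coding genes had such a summit. The DNA between each of these starts and that of the neighbouring gene is shown first because it holds the conservative summits. Both stretches are intergenic, are written 5′ to 3′ on the + strand of release 6 (dm6), and have the base at the summit as a capital. The first runs from the base after the start of Slbp to the base before the start of Rpn2, chr3R:29153267-29153523, and the second from l(2)37Bb to Rpn3, chr2L:19051613-19051789.
Rpn2: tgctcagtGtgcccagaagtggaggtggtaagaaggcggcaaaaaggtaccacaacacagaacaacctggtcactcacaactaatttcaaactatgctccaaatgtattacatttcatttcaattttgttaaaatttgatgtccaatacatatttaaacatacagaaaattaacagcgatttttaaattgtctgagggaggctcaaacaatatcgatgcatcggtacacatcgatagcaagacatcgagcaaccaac
Rpn3: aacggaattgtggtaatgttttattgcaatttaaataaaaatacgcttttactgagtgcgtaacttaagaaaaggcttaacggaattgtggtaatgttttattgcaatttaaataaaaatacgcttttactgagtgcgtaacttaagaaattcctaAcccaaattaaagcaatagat

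The Rpn2 summit is base 9 of 257 in its stretch, at the end next to Slbp. The Rpn3 summit is base 157 of 177, at the end next to Rpn3. The Rpn3 stretch is low in G and C (28.8%, against 38.1% for that of Rpn2) and lies across a tandem repeat. A word of 78 bp occurs 2 times in a row, at chr2L:19051603-19051680 and chr2L:19051681-19051758. The first copy begins before the stretch shown, the second is whole within it, and the summit lies just after the second copy. No word of 10 bp or more was repeated without overlap in the Rpn2 stretch with 100 bp on each side.

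Rpn2 encodes the large scaffold of the base to which the ubiquitin receptor Rpn13 binds, and it was the proteasome gene with the highest signal. The gene lies at 3R from 29153524 to 29157255 on the + strand and has 1 start. The conservative peak spanned chr3R:29153080-29153469, with a signal of 204.7 at its summit and a −log10 IDR of 4.06. This peak was number 1274 of the 5697 by signal, and the gene stood at percentile 95.3 of all protein-coding genes. In the pooled list the same call had a −log10 IDR of 4.41. Its signal was 123.1 in replicate 1 and 74.5 in replicate 2, with −log10 IDRs of 4.74 and 3.79, so it passed the threshold in all 4 lists. The summit was 249 bp upstream of the start of Rpn2 and 9 bp from the start of the divergent gene Slbp, which encodes the protein that binds the stem-loop of histone mRNA. In replicate 2 the distances were 247 and 11 bp. Which of these starts the signal belongs to was not tested. A second, weaker ranked call lay 48 bp upstream of the Rpn2 start, with a signal of 41.2 and a −log10 IDR of 0.63.

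Rpn3, a scaffold subunit of the lid, had a conservative peak at chr2L:19051574-19051963. The gene lies at 2L from 19051790 to 19053681 on the + strand, and the summit was 21 bp upstream of the first of its 2 starts and 157 bp from that of l(2)37Bb. The signal was 74.7, number 4121 of 5697, with a −log10 IDR of 2.51. The same call had a −log10 IDR of 1.77 in the pooled ranked list and did not pass there. Replicate 1 had a signal of 41.2 at this place and replicate 2 had 33.5, with −log10 IDRs of 0.23 and 1.29. The call was thus present in every ranked list and past the threshold in the conservative list only. Of the words of 36 bases within 500 bp of the Rpn3 starts, 8.51% occur more than once in the genome, the tandem repeat included, and the treatment of reads with several positions is not given.

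The other thresholded lists added 3 genes. The pooled list had a summit at 4 of the 48 (8.33%, against 17.1% of all protein-coding genes), which were Rpn2, Rpn6, Rpt3R and Prosalpha6. Replicate 1 alone had 3 (6.25%, against 13.2%), Rpn2, Rpn6 and Rpt3R. Replicate 2 alone had 1 (2.08%, against 10.6%), which was Rpn2. In all, 5 proteasome genes had a summit in any thresholded list, 1 had it in all 4 lists, and 43 had none. The matching shares of all protein-coding genes across lists are not given here, so these counts are descriptions only.

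Rpn6, the lid subunit that bridges the lid and the core, had a signal of 73.5 in the lists from both replicates, 45.2 in replicate 1 and 19.8 in replicate 2. The ranked call was thus present in every list, as it was for Rpn2 and Rpn3. The −log10 IDR was 0.86 in the conservative list, 2.44 in the pooled list, 2.74 in replicate 1 and 0.19 in replicate 2. The summit lay 260 bp inside the gene and 129 bp from the start of ave, in coding sequence of ave. Rpt3R, a paralogue of the ATPase Rpt3, had a signal of 70.6 in the lists from both replicates, 45.7 in replicate 1 and 24.0 in replicate 2. Its −log10 IDR was 1.67 in the conservative list, 2.52 in the pooled list, 2.53 in replicate 1 and 0.49 in replicate 2. That summit was 14 bp upstream of a start of Rpt3R and 33 bp from the start of Alg12, in the 5′ UTR of Alg12. Both genes thus passed in the pooled list and in replicate 1, and not in the conservative list or in replicate 2.

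Prosalpha6, an alpha ring subunit, stood apart from these. Its call was in the pooled lists only, with a signal of 73.0 and a −log10 IDR of 2.54. The summit was 380 bp inside the gene, in its coding sequence. The conservative, replicate 1 and replicate 2 ranked lists held no call within 500 bp of its start, and the nearest conservative ranked call was 2045 bp away. Of the conservative and pooled thresholded summits at starts of proteasome genes, the Prosalpha6 summit alone lay in coding sequence of its own gene. The 101 bases around that summit, chr2L:10221681-10221781 on the + strand, are shown for this reason. They are rich in G and C (60.4%) and hold none of the 6 words searched below, so they have no capitals.
Prosalpha6: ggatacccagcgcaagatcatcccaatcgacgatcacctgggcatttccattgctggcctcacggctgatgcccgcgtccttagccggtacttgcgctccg

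**Figure D1:**
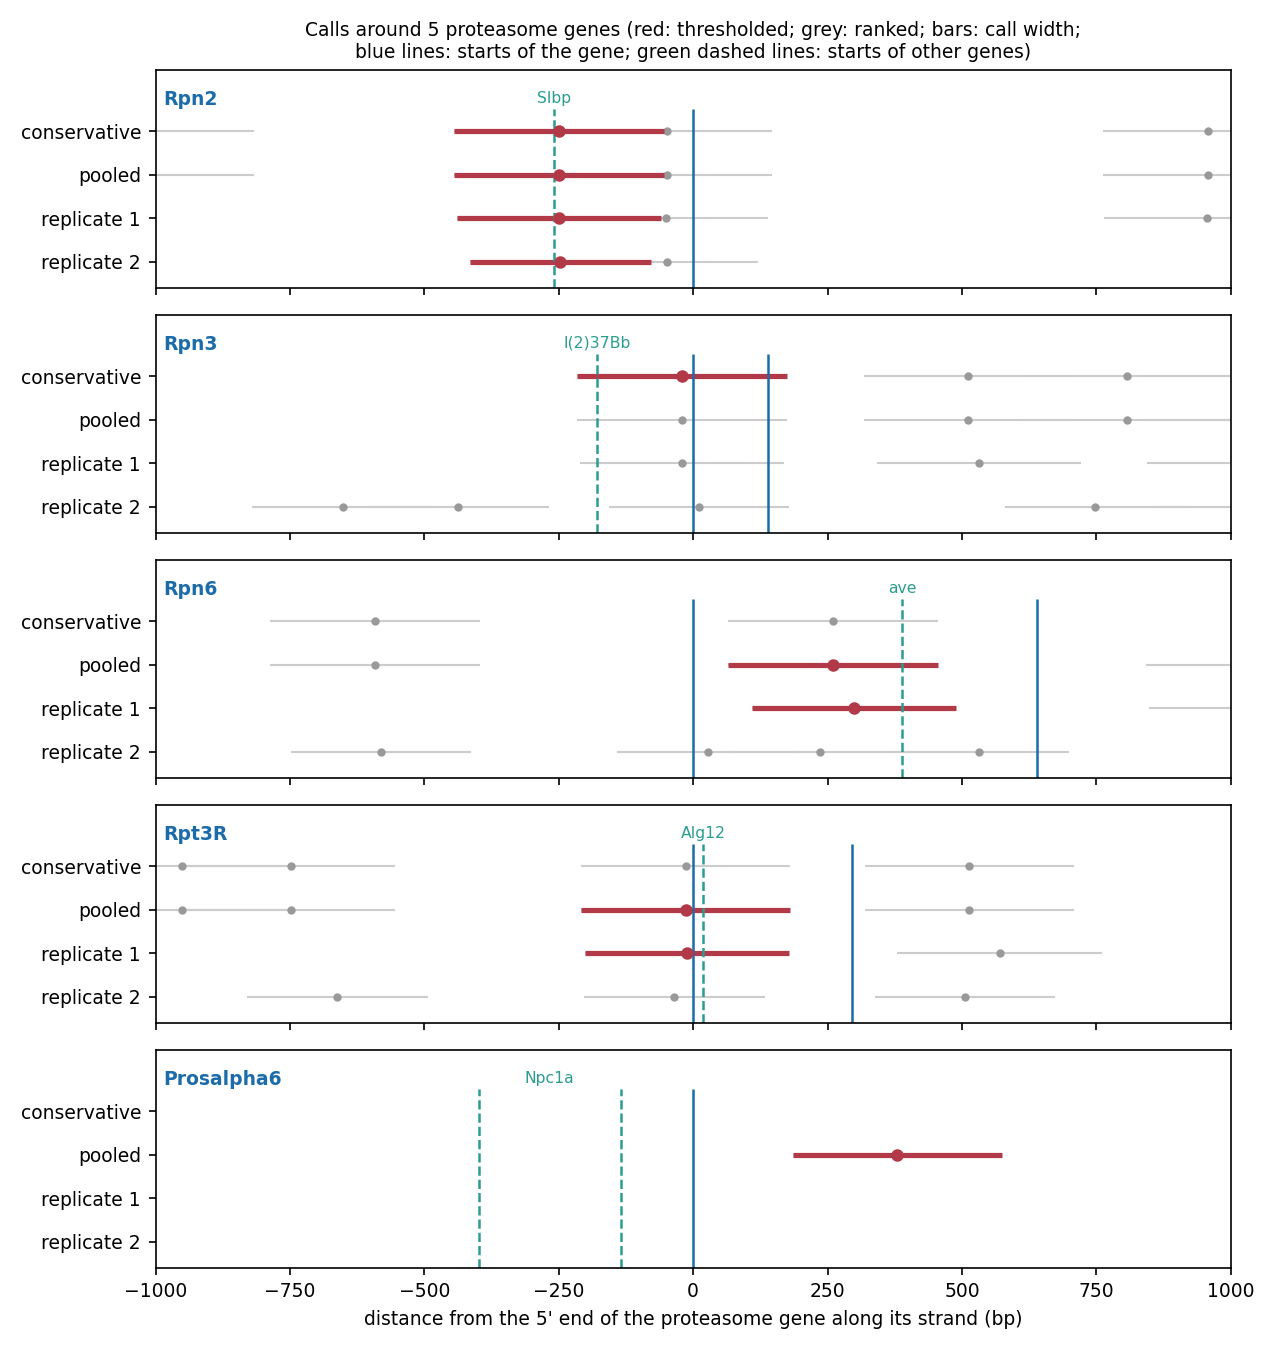
Calls around the 5 proteasome genes with a thresholded summit in any list. The horizontal axis is the distance in bp from the 5′ end of the gene along its strand, each row is a list, dots are summits and bars are the width of the call, red for thresholded and grey for ranked calls; solid lines are starts of the proteasome gene and dashed lines starts of other genes. The Rpn2 call is red in all 4 lists and lies at the start of Slbp, the Rpn3 call is red in the conservative list only, and the Prosalpha6 call is in the pooled lists only.

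All 5 genes have the start of another protein-coding gene within 500 bp of a start of their own. So do 24 of the 48 proteasome genes, and 30.8% of all protein-coding genes. Among the 24 with such a neighbour, 2 had a conservative summit (8.33%), where 25.2% of all 4309 genes with a close neighbour had 1 or more. Among the 24 without, 0 had a summit, where 11.7% of the other genes had. The share was also below that of all genes among those with the same number of starts: 1 of the 36 proteasome genes with 1 start had a summit (2.78%, against 10.8%), and 1 of the 11 with 2 starts (9.09%, against 23.6%). For scale, 51 of 92 cytosolic ribosomal protein genes had a conservative summit (55.4%), and 13 of 73 mitochondrial ones (17.8%). These shares are descriptions, and the differences between them were not tested.

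Beyond the starts, conservative peaks were not found inside proteasome genes either. No gene of the 48 had a conservative summit within its gene body, where 15.3% of all protein-coding genes had. A longer gene has more room for a summit, and these shares were not matched for gene length. The nearest conservative summit was within 2000 bp of a start for 7 of the 48 (14.6%, against 25.0%) and within 5000 bp for 17 (35.4%, against 38.4%). The median distance was 11027 bp, against 8208 bp over all protein-coding genes, and it ranged from 21 bp for Rpn3 to 142849 bp for Prosbeta5R2. The shares thus lie closer to each other at 5000 bp than at the starts.

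**Figure D2:**
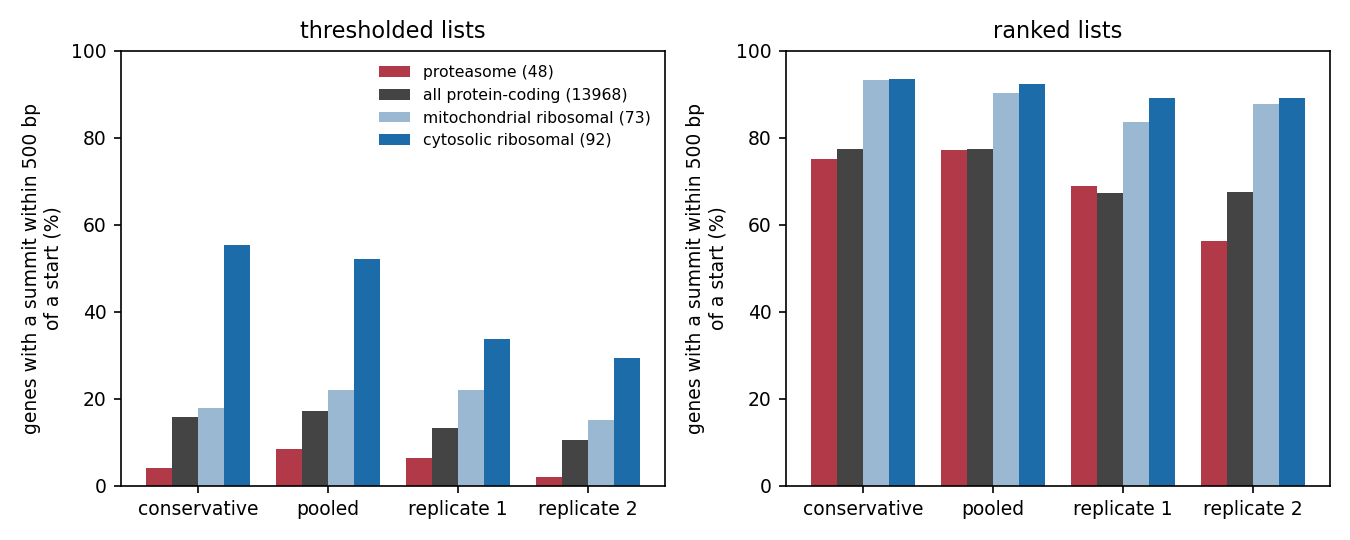
Share of genes (%) with a summit within 500 bp of a start in each of the 4 thresholded lists (left) and ranked lists (right), for the 48 proteasome genes, all 13968 protein-coding genes, 73 mitochondrial and 92 cytosolic ribosomal protein genes. In the thresholded lists the proteasome bars, from 2.08% to 8.33%, are the lowest of the 4 gene groups in each list; in the conservative ranked list they are close to those of all genes (75.0% and 77.4%).

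The ranked lists, which carry no threshold, gave another picture. In the conservative ranked list 36 of the 48 had a call at a start (75.0%), beside 77.4% of all protein-coding genes. In the pooled ranked list there were 37 (77.1%, against 77.3%), in replicate 1 there were 33 (68.8%, against 67.4%) and in replicate 2 there were 27 (56.2%, against 67.5%). In the first 3 lists these shares lie near the background, so the presence of a ranked call is no result about proteasome genes. The general complex and the paralogues differed in their counts. Of the 32 genes of the general complex 28 had a conservative ranked call (87.5%), and of the 16 paralogues 8 had (50.0%). Neither group had more than 2 genes past the threshold in that list, with 2 of the general complex and 0 of the paralogues.

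The signal of these calls was that of a typical gene. With genes without a call set to 0, the median of the highest conservative signal at a start was 28.22 for the 48 and 28.19 for all protein-coding genes. The upper ends differed: the upper quartile was 43.0 for the proteasome genes and 48.1 for all genes, and the highest 10% began at 63.03 and 98.5. Of the 48, 24 were above the median of all genes, 11 above their upper quartile and 1, Rpn2, in their highest 10%. The 5 highest were Rpn2, Rpn3, Rpn6, Rpt3R and Prosbeta3, a subunit of the beta ring with 64.8. Replicate 1 had a median of 16.94 for the 48 beside 14.44 for all genes, and replicate 2 had 14.09 beside 15.16. The medians of the 48 were thus above that of all genes in replicate 1 and below it in replicate 2.

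**Figure D3:**
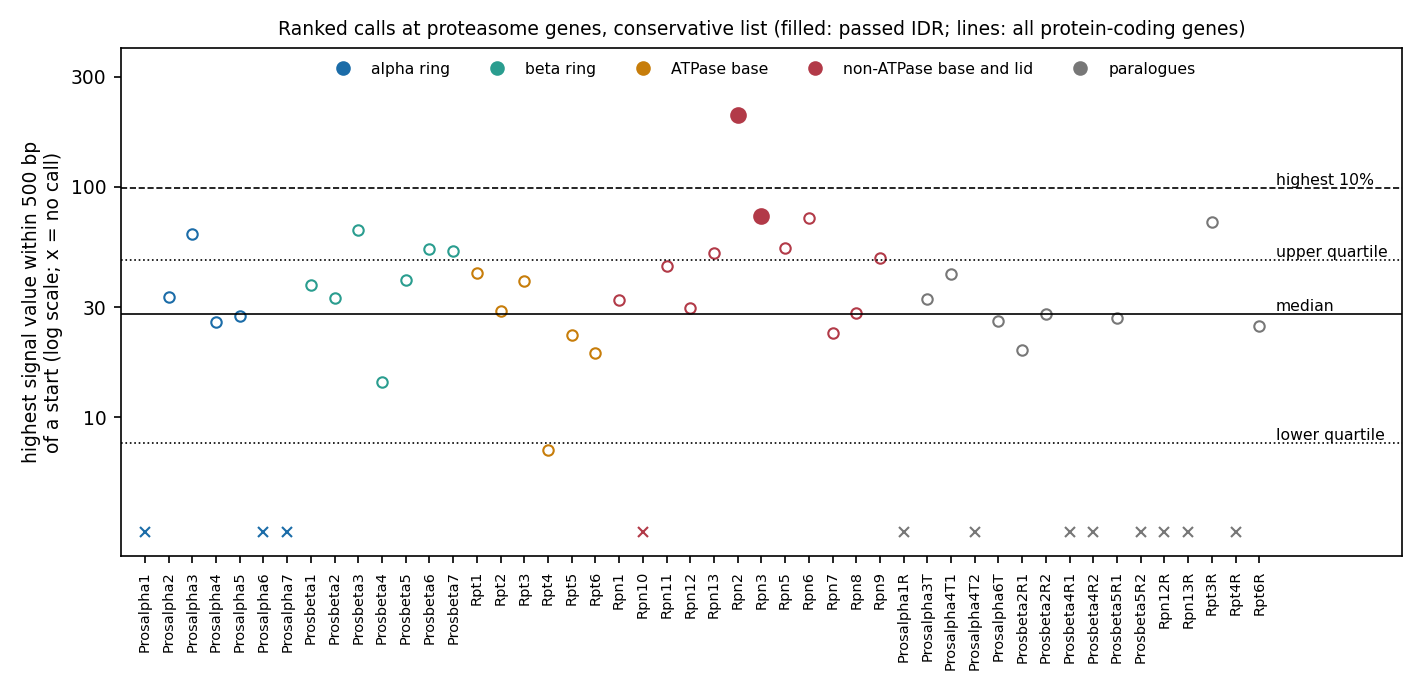
Highest signal value (log scale) of a conservative ranked call within 500 bp of a start, for each of the 48 proteasome genes in order of role. Filled points passed the IDR threshold, crosses are genes without a call, and the lines are the quartiles, the median and the lower bound of the highest 10% of all protein-coding genes. Rpn2, at 204.7, is the single point above the top line.

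By role, the calls fell as follows, with the genes at the ends of each range named after their values were seen. In the alpha ring, 4 of 7 genes had a conservative ranked call, from 26.0 for Prosalpha4 to 62.3 for Prosalpha3. Prosalpha1, Prosalpha6 and Prosalpha7 had none. In the beta ring all 7 had a call, from 14.2 for Prosbeta4 to 64.8 for Prosbeta3, with a median of 39.5. The subunits with proteolytic sites had signals inside that range, at 37.3 for Prosbeta1, 33.1 for Prosbeta2 and 39.5 for Prosbeta5.

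With genes without a call set to 0, the ATPases and the alpha ring had the lowest medians of the general complex in this list. All 6 Rpt ATPases had a call, from 7.26 for Rpt4 to 42.3 for Rpt1, with a median of 25.8. The alpha ring, where 4 of 7 genes had a call, had a median of 26.0. Of the 12 other subunits of the base and lid 11 had a call, from 23.2 for Rpn7 to 204.7 for Rpn2, with a median of 47.1. Rpn11, the deubiquitinase of the lid, had 45.2, and the ubiquitin receptors Rpn13 and Rpn1 had 51.5 and 32.3. Rpn10, also a ubiquitin receptor, had no call within 500 bp of a start in any ranked list. Across all roles, Rpn2 was the single gene whose signal exceeded the median of the conservative thresholded peaks. The paralogues had a median of 9.84 with the 8 genes without a call set to 0, and the calls of the other 8 ranged from 19.7 for Prosbeta2R1 to 70.6 for Rpt3R.

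Just outside the threshold in the conservative list stood Prosbeta2R2, a paralogue of Prosbeta2, with a −log10 IDR of 1.78 and a highest signal of 28.2, and Rpt3R with 1.67. Just inside stood Rpn3 with 2.51. Between the replicates, 25 of the 48 genes had a ranked call in both, 8 in replicate 1 alone, 2 in replicate 2 alone and 13 in neither. Of all 13968 protein-coding genes, 7847 had a call in both, 9419 had one in replicate 1 and 9425 had one in replicate 2. Among the 25, Spearman's rho between the highest signals of the replicates was 0.165, and it was 0.057 over the 24 without Rpn2. Over the 7847 protein-coding genes with a call in both it was 0.704. These rho values are descriptions across genes, which share libraries and are not independent. They were not matched for range of signal: in replicate 1 the highest signal was 123.1 among the 48 and 1977.77 among all genes. The highest calls of a gene in the 2 replicates can also be different summits. At Rpn8 they lay 475 bp downstream of a start in replicate 1 and 8 bp upstream in replicate 2. The part of either in the lower rho was not tested.

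**Figure D4:**
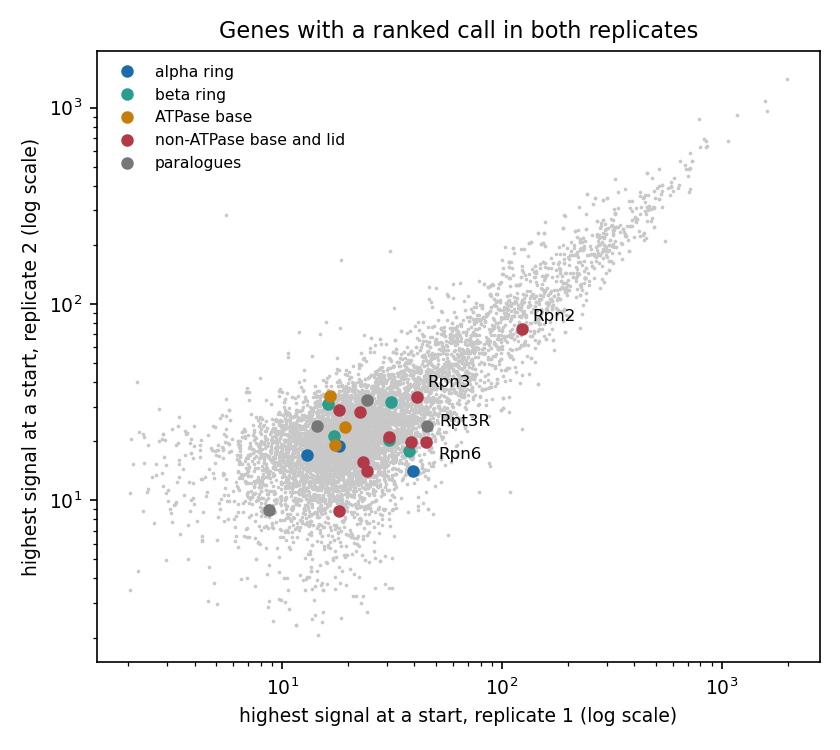
Highest signal value at a start in replicate 1 (horizontal) and replicate 2 (vertical), both on log scales, for genes with a ranked call in both replicates. Grey dots are all other protein-coding genes and coloured points the 25 proteasome genes by role. Rpn2 lies on the band of high values, and the other 24 sit in the cloud of low values. Over these 24 genes Spearman's rho was 0.057.

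The highest calls were spread over the window of 500 bp. For the 36 genes with a conservative ranked call, the summit of the highest call was a median of 266 bp from the nearest start, against 196 bp over all genes with a call. It was within 100 bp for 7 of 36 (19.4%, against 28.4%), and it was upstream for 19 and downstream for 17. In Rpn3 and Rpt3R the summit was within 100 bp of a start, and in Rpn2, Rpn6 and Prosbeta3 it was not, at 249, 260 and 496 bp.

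**Figure D5:**
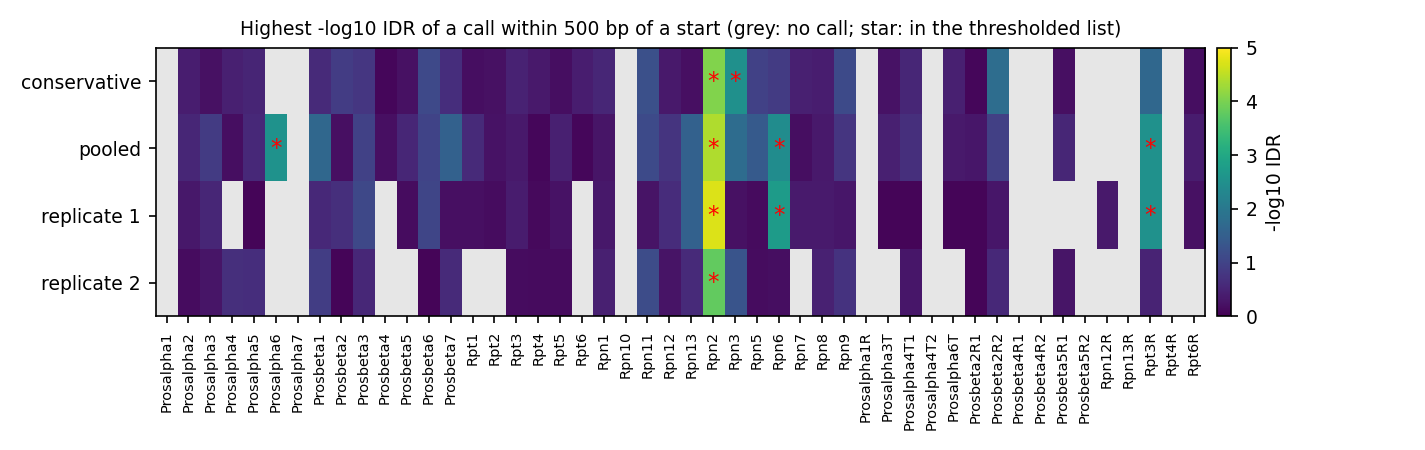
Highest −log10 IDR of any call within 500 bp of a start, for each proteasome gene (columns) in each ranked list (rows); grey fields have no call and stars mark genes with a summit in the thresholded list. Rpn2 is starred in every row, with values from 3.79 to 4.74, and most other fields lie below 2.

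Of the 48, 10 had no call at a start in any ranked list. They were Prosalpha1, Prosalpha7 and Rpn10 of the general complex, and the paralogues Prosalpha1R, Prosalpha4T2, Prosbeta4R1, Prosbeta4R2, Prosbeta5R2, Rpn13R and Rpt4R. The matching share of all protein-coding genes is not given here. Some calls lay just outside the window: the nearest conservative ranked call was 527 bp from a start for Rpn13R, 533 bp for Prosalpha7 and 624 bp for Rpn10. For the others it was from 949 bp for Prosalpha4T2 to 7406 bp for Prosbeta4R1. Prosalpha1 and Prosalpha1R lie close together on the same arm. In the windows of both, 100% of the words of 36 bases occur more than once in the genome. This share was above 10% for these 2 of the 48 genes and was 0 for 43, so the other 8 genes without a call have windows without such repeats. How reads with several positions were treated is not given, and its part in the missing calls of Prosalpha1 and Prosalpha1R was not tested.

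Sequence words were then searched in the 500 bp on each side of the starts, on both strands. The word CAACAAC was chosen because earlier results of these data had named it at the summits. It was present at 9 of the 48 proteasome genes (18.8%), beside 27.9% of all protein-coding genes, 59.8% of those with a conservative summit and 21.8% of those without. Among genes with 1 start, whose windows are of equal size, it was at 7 of the 36 proteasome genes (19.4%) and at 21.5% of all protein-coding genes. With the shorter word CAACAA the order turned, at 35 of the 48 (72.9%) beside 68.7% of all genes. The 9 genes with CAACAAC were Rpn1, Rpn5, Rpn9, Rpn11, Rpn13, Prosbeta6, Prosalpha4T2, Prosbeta5R2 and Rpt6R. Neither Rpn2 nor Rpn3 was among them, and none of the 9 had a thresholded summit in any list. The matches of Rpn9, Prosbeta6 and Rpn11 are shown as examples upstream of genes with a ranked call, and were chosen after their positions were seen. Rpn5 and Rpn13 also had a match upstream, farther out at -415 and -416 bp, with the nearest conservative ranked summit 113 and 93 bp from it at signals of 54.2 and 3.0. The capitals are the word or its reverse complement on the + strand, at chr3R:23733466-23733494 for Rpn9, chr3L:16610410-16610438 for Prosbeta6, and chr2L:5059906-5059934 and chr2L:5059968-5059996 for Rpn11.
Rpn9: aaaaccaaataCAACAACtcgagtgtgcg
Prosbeta6: tcaatgtgaccGTTGTTGagcatcggatc
Rpn11: gctaagctttaGTTGTTGttatgtaaata
Rpn11: gaaattaactaGTTGTTGtcaaggatgta

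Offsets are counted along the gene from the nearest start to the lowest coordinate of the word, and a negative offset is upstream. The offset was -15 bp in Rpn9, -3 bp in Prosbeta6, and -127 and -189 bp in Rpn11. The nearest conservative ranked summit was 289 bp from the match in Rpn9, with a signal of 49.0, and 232 bp away in Prosbeta6, with 4.6. In Rpn11 the same summit, with a signal of 28.5, was 72 bp from the first match and 134 bp from the second. None of these 3 ranked calls passed the threshold, with −log10 IDRs of 1.13, 0.18 and 0.19.

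The word TATCGATA, the core of the DNA replication-related element (DRE) that the factor DREF binds in flies, was present at 15 of the 48 (31.2%), beside 13.0% of all protein-coding genes. In the general complex 14 of 32 had it (43.8%), and among the paralogues 1 of 16 had it, Rpt3R. In 10 of the 15 genes a match lay within 100 bp of a start. Among genes with 1 start it was at 9 of the 36 proteasome genes (25.0%), beside 11.6% of all protein-coding genes. Of the 15 genes with the word 1 had a conservative summit, Rpn3, while 23.7% of all 1815 protein-coding genes with it had. The matches of 5 of the genes with the word close to a start are shown, with those of Rpn3, as a feature of the sequence that the choice of genes by name did not use. The capitals are the word, which reads the same on both strands, and all are on the + strand.
Prosalpha6: cccgaatccctTATCGATAcccgatacaca
Prosbeta2: ccatgaatataTATCGATAcaatatcgatt
Prosbeta6: tgcttaaacgtTATCGATAggtatacatac
Rpn7: gaccccaaaatTATCGATAaattataccgc
Rpt5: atcgctgtcacTATCGATAagcgccggcga
Rpn3: tgttatcggagTATCGATAtcgaaaaggct
Rpn3: accgtaaaacgTATCGATAaattgaaacgt

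In the order shown, the matches lie at chr2L:10221324-10221353, chr3L:14999930-14999959, chr3L:16610444-16610473, chr3R:22462033-22462062, chr3R:23752819-23752848, chr2L:19051582-19051611 and chr2L:19051855-19051884. Their offsets were -16 bp in Prosalpha6, -10 bp in Prosbeta2, -37 bp in Prosbeta6, 10 bp in Rpn7 and -46 bp in Rpt5. In Rpn3 the offsets were -197 and -63 bp, each from the nearer of its 2 starts, and the conservative summit lies between the matches.

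Of the other words, the antioxidant response element TGACNNNGC, which the factor cnc binds with its partner maf-S, was at 20 of the 48 (41.7%, against 31.4%). It was at 16 of the 32 genes of the general complex (50.0%) and 4 of the 16 paralogues (25.0%). Among genes with 1 start it was at 17 of the 36 proteasome genes (47.2%, against 27.2%). The core GGTCACAC of the motif that the factor M1BP binds was at 8 (16.7%, against 11.7%), all in the general complex. The repeat GAGAGAG was at 4 (8.33%, against 15.7%) and the E-box CACGTG at 6 (12.5%, against 15.4%). The E-box was at 1 of the 32 genes of the general complex (3.12%) and at 5 of the 16 paralogues (31.2%). The 101 bases around the thresholded summits of Rpn2, Rpn3, Rpt3R and Prosalpha6 held none of the 6 words; those around the summit of Rpn6 were not searched. A match is a string of letters, and the differences between these shares were not tested.

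Other genes of the pathway had conservative summits at their starts. Of 12 genes for assembly, regulation and activation of the proteasome 4 had a summit, of 5 ubiquitin genes 3 had, of 7 shuttle and segregase genes 3 had, and of 9 genes of the COP9 signalosome, a complex related to the lid, 0 had. Over all 33 genes this was 10, beside the 15.9% of all protein-coding genes given above. The signal was 187.1 for cnc, the transcription factor that raises proteasome genes in flies, and 87.0 for Keap1, its inhibitor. Pomp, the maturation factor of the core particle, had 139.4, and Uch-L5, a deubiquitinase of the regulatory particle, had 58.1. The highest were in the segregase that pulls ubiquitinated proteins out of complexes, with 782.3 for TER94, its ATPase, and 230.0 and 175.0 for its cofactors Ufd1 and Npl4. Among the ubiquitin genes the summits had 85.1 for RpS27A, 68.3 for Ubi-p5E and 4.6 for Uba1, the activating enzyme. At Uba1 a higher ranked call of 100.8 was not in the thresholded list. In 7 of these 10 genes, cnc, Keap1, Pomp, Uch-L5, Ufd1, Npl4 and TER94, the thresholded list of each replicate also had a summit. The count of 10 was not matched to all genes for the number of starts or for close neighbours. cnc has 10 starts and TER94 has 3, and 43.6% of all protein-coding genes with 3 or more starts had a conservative summit. Keap1, Uch-L5, RpS27A and Ufd1 have the start of another gene within 500 bp, and the others do not. The 33 genes were chosen with earlier results of these data known, and their difference from the subunit genes was not tested.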

How the data were processed

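Peak lists from ChIP-seq of CG4360-eGFP in whole embryos (1 group, 2 biological replicates) were used as deposited. The lists are on dm6, per the file headers and labels. Read depth is unknown, and the sources used here name neither aligner nor caller. For each call the authors deposited a signal value on a scale that is not stated, and in the ranked lists the −log10 of the global IDR, which was at least 2 for every deposited thresholded peak. The conservative and pooled lists hold the same signal for a shared call and differ in the IDR. A p-value is not given anywhere, since there is no second group.

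Transcript starts came from the Ensembl release 115 gene models of assembly release 6, over protein-coding genes of the major arms. A gene was counted where a summit lay within 500 bp of any of its transcript starts, and its highest signal was 0 where no call did. Sequences were read from the RefSeq copy of release 6. Python 3.11.15, numpy 2.4.6, pandas 2.3.3, scipy 1.17.1 and matplotlib 3.10.9 were used. The assignment of summits to genes was tested on simulated summits.

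The members, gene lists and words were chosen with earlier results of these data known. Genes were named by rule: members with a thresholded summit in any list, the 5 members with the highest conservative signal, those with CAACAAC, those without a ranked call, the neighbour nearest to a named summit, and pathway genes with a conservative summit. Members with TATCGATA, and those named in the account by role, were named after their values were seen. Alternatives changed the distance, the starts, the list, the IDR, the use of summits, the treatment of neighbouring genes, the members and the word. No set test or chance test was made.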

Additional observations from a re-analysis of the deposited data

How the results depend on the processing

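The count of proteasome genes with a thresholded summit at a start was 2 (Rpn2 and Rpn3) with the conservative list. It was 4 with the pooled list, from 1 to 3 without either replicate (1 with the replicate 2 list, 3 with the replicate 1 list), 1 with an IDR of at most 0.001 (Rpn2), and 1 where no start of another gene may be nearer (Rpn3). It was 2 under each other setting tried, among them ranked calls with an IDR of at most 0.01, a setting added after the data were seen; the share of all protein-coding genes exceeded that of the proteasome genes in every one of these settings. The count with a ranked call, 36, ranged from 27 to 41, and the share of all protein-coding genes moved with it. It was 27 within 250 bp (56.2%, against 60.1%) and 41 within 1000 bp (85.4%, against 87.3%). By overlap of whole peaks it was 40 (83.3%, against 83.1%), and with the replicate 2 list it was 27 (56.2%, against 67.5%). For the general complex only it was 28 of 32 (87.5%, against 77.4%). The median highest signal of 28.22 became 13.91 within 250 bp, 37.68 within 1000 bp, 32.77 by overlap of whole peaks and 33.14 for the general complex only; without either replicate it ranged from 14.09 to 16.94. The matching medians of all protein-coding genes were 15.28, 35.44, 31.99, 28.19, 15.16 and 14.44, so the order of the medians changed with the distance and the replicate. The count with CAACAAC, 9, became 15 within 1000 bp (31.2%, against 43.6% of all protein-coding genes) and 35 with the word CAACAA (72.9%, against 68.7%), where the order turned. No paired analysis was possible because there was 1 group. The unknown depth limits what a missing call can show.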

Other observations

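Read within each replicate, the roles of the proteasome genes kept their order of signal in part. With genes without a call set to 0, the median highest signal at a start in replicate 1 was 24.1 for the beta ring, 23.9 for the other base and lid subunits, 18.2 for the ATPases, 4.31 for the paralogues and 0.0 for the alpha ring. In replicate 2 it was 20.2 for the beta ring, 19.9 for the other base and lid subunits, 14.1 for the alpha ring, 9.56 for the ATPases and 0.0 for the paralogues. The beta ring and the other base and lid subunits thus had the higher medians in both replicates, and the alpha ring, the ATPases and the paralogues changed places. Beside these, the cytosolic ribosomal protein genes had medians of 33.6 and 33.5 and the mitochondrial ones of 21.1 and 20.4 in replicates 1 and 2.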
